A study of Homo sapiens with 6 samples.

Results

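The 10 genes described here are transcripts that rise with signalling through the RAS-RAF-MEK-ERK cascade and, for most of them, encode proteins that restrain it: the phosphatases DUSP4, DUSP5 and DUSP6, the Sprouty genes SPRY1, SPRY2 and SPRY4, the Sprouty-related genes SPRED1 and SPRED2, and the transcription factors ETV4 and ETV5. They were chosen by name, as a feedback readout of this cascade, with earlier results of these data known. Each had 1 row of its own among the 74852 genes of the deposited table. All 10 were also among the 18717 genes that were tested, which averaged 10 or more normalized counts. The cells were MDA-MB-231, a human TNBC line with a mesenchymal phenotype that carries an activating mutation in BRAF. They were transfected with a pool of non-targeting siRNAs (si-CTRL) or a pool that targets the mitotic kinase NEK2 (si-NEK2), in 3 replicates per group, and polyA-enriched RNA was sequenced. By the sample records, both groups were transfected in 2 rounds and harvested 24 h after the second, whereas the methods count a longer interval from transfection. A single pool per group was used, so that effects of NEK2 loss and of the siRNAs themselves cannot be told apart, and whether both groups were prepared together is not given in the sources used here.

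When growth factor receptors or mutant RAS activate the RAF and MEK kinases, ERK is phosphorylated on a threonine and a tyrosine, enters the nucleus and switches on a set of genes within minutes to hours. Among them are dual-specificity phosphatases that remove both phosphates from ERK, Sprouty and SPRED proteins that act upstream on RAS and RAF, and the ETS factors ETV4 and ETV5 that carry the response further. In tumour cells with a constantly active cascade these transcripts are high, and their level is used as a readout of ERK output.

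The deposited values are reads on a gene scaled to the library by its DESeq2 size factor, here called normalized counts. Depth was between 52625492 and 87454509 reads per library, and 1 read was worth between 0.818 and 1.25 normalized counts. A gene was called regulated where limma gave a p of 0.05 or less and a change of 1.5-fold or more, and "fell" or "rose" is used of genes whose p-value, adjusted by Benjamini and Hochberg over all 18717 genes, was 0.05 or less. NEK2 had 3702, 3323 and 3290 normalized counts in si-CTRL replicates 1, 2 and 3 and 284, 362 and 388 in the si-NEK2 replicates, so that the labels held in every library. Of the markers of a mesenchymal breast cancer line, VIM, ZEB1, CD44 and AXL summed to between 209255 and 300044 normalized counts in every library, whereas ESR1, PGR, CDH1 and EPCAM together had at most 21.7. ZEB1 and CD44 were themselves lower in si-NEK2 cells.

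Most, but not all, of the ERK feedback transcripts were lower after silencing of NEK2. ETV4, SPRY4, DUSP6 and DUSP5 were regulated, all downward, which is 4 of 10 members beside 14.3% of all genes tested. SPRY2 and SPRED2 fell by less than 1.5-fold, so that 6 of 10 members fell, beside 21.3% of all genes, and the same 6 did not overlap between the groups, beside 26.9% of all genes. None (0) rose or was regulated upward in limma, edgeR or DESeq2, beside 21.8% and 8.23% of all genes in limma, although SPRY1 had an unadjusted p of 0.0356. DUSP4, SPRED1 and ETV5 overlapped between the groups, and SPRY1, the least abundant of the set, was the 1 member with higher values in si-NEK2 cells. The median log2 fold change of the members was -0.43, beside 0.01 over all genes tested. In these bulk samples less RNA per cell and fewer cells with the transcript cannot be told apart.

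**Figure D1:**
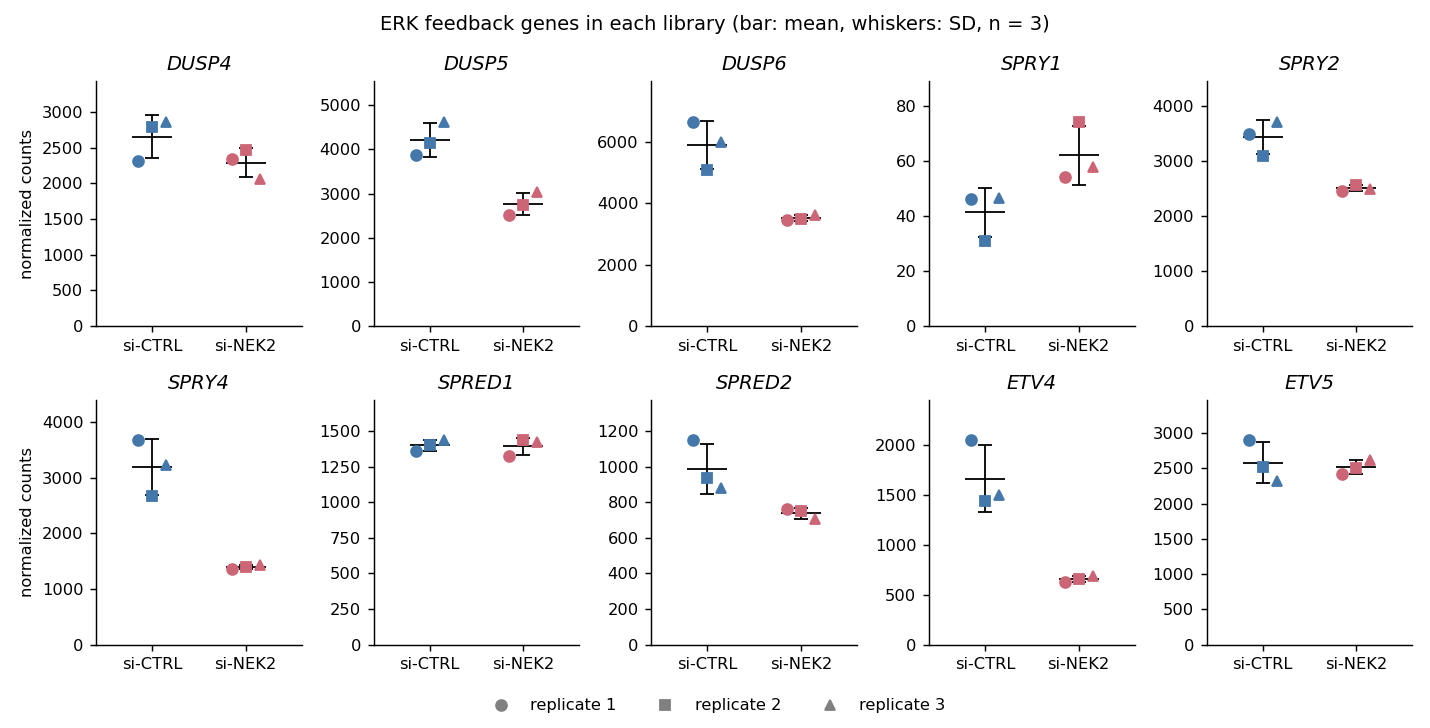
Normalized counts of the 10 ERK feedback genes (y axis, from 0) in the 3 si-CTRL and 3 si-NEK2 libraries (x axis), with the mean as a bar and the SD as whiskers. DUSP6 (5907 to 3512) and SPRY4 have the largest differences in counts between the group means and ETV4 has the largest relative to its level, DUSP4, SPRED1 and ETV5 overlap, and SPRY1 is higher in si-NEK2 cells at under 80 normalized counts.

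The phosphatases act directly on ERK, DUSP6 in the cytoplasm and DUSP5 in the nucleus, while DUSP4 is a nuclear enzyme that also acts on the stress kinases JNK and p38. DUSP6 (GSHG0007668, chromosome 12 from 89741602 to 89746636, hg19) had 6648, 5090 and 5983 normalized counts in si-CTRL replicates 1, 2 and 3 and 3444, 3471 and 3621 in the si-NEK2 replicates. All si-NEK2 libraries were below all si-CTRL libraries and close to each other. The si-CTRL mean of 5907 ± 782 was reduced to 3512 ± 95.5 (SD, n = 3), which is 59.5% of it, a log2 fold change of -0.74 (SE 0.10, limma adjusted p = 0.00043).

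DUSP5 (GSHG0003678, chromosome 10 from 112257625 to 112271295, hg19) had 3871, 4152 and 4625 normalized counts in si-CTRL replicates 1, 2 and 3 and 2525, 2746 and 3032 in the si-NEK2 replicates. The groups did not overlap here either. With 4216 ± 381 (SD, n = 3) in si-CTRL and 2768 ± 254 (SD, n = 3) in si-NEK2 cells, 65.6% remained. The log2 fold change of -0.61 (SE 0.09, limma adjusted p = 0.00101) was just past a fold change of 1.5, which is 0.58 on this scale. Leaving out si-CTRL replicate 3 gave -0.54, and leaving out si-NEK2 replicate 1 also took DUSP5 under the fold threshold, while its adjusted p stayed at or below 0.0084 under every alternative.

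DUSP4 (GSHG0029502, chromosome 8 from 29190579 to 29208267, hg19) had 2313, 2788 and 2863 normalized counts in the si-CTRL replicates 1, 2 and 3, and 2339, 2465 and 2067 in the si-NEK2 replicates. The lowest si-CTRL library, replicate 1, lay below 2 of the si-NEK2 libraries. The log2 fold change was -0.21 (95% interval from -0.45 to 0.02, limma adjusted p = 0.133), and without si-CTRL replicate 1 it was -0.31 with an adjusted p of 0.00823 in limma. It also passed with libraries scaled to equal totals (-0.34, limma adjusted p = 0.0274), and the size of the change stayed below 1.5-fold under all 17 alternatives.

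Sprouty proteins are membrane-associated inhibitors induced by receptor tyrosine kinase signalling, of which SPRY2 also binds the ubiquitin ligase CBL. SPRY4 (GSHG0025142, chromosome 5 from 141689992 to 141704620, hg19) had 3671, 2676 and 3232 normalized counts in si-CTRL replicates 1, 2 and 3 and 1352, 1387 and 1423 in the si-NEK2 replicates. Every si-NEK2 library held fewer than the lowest si-CTRL library by a wide margin. Of the si-CTRL mean of 3193 ± 498, 1387 ± 35.7 (SD, n = 3) or 43.5% was left (log2 fold change -1.19, SE 0.11, limma adjusted p = 7.86e-05). SPRY4-IT1, a noncoding transcript that lies within the SPRY4 gene, went from 56.1 ± 21.4 to 18.0 ± 3.996 normalized counts (SD, n = 3), a log2 fold change of -1.54 (SE 0.32, limma adjusted p = 0.00462). Its counts were 1.76% of those of SPRY4 in si-CTRL cells, and since the strand setting of the counting is not given in the sources used here, the reads of the 2 may be shared.

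SPRY2 (GSHG0008564, chromosome 13 from 80910111 to 80915250, hg19) had 3496, 3101 and 3715 normalized counts in si-CTRL replicates 1, 2 and 3 and 2462, 2574 and 2496 in the si-NEK2 replicates. Again the groups did not overlap, but the gap was smaller than for SPRY4. SPRY2 fell to 73% of its si-CTRL mean (log2 fold change -0.45, SE 0.08, limma adjusted p = 0.00224).

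SPRY1 (GSHG0022830, chromosome 4 from 124317950 to 124324915, hg19) had 46.2, 31.0 and 46.6 normalized counts in si-CTRL replicates 1, 2 and 3 and 54.0, 74.1 and 57.6 in the si-NEK2 replicates. All si-NEK2 libraries were above all si-CTRL libraries, as for 28.2% of all genes tested, and the counts were the lowest of the 10 members. The log2 fold change was 0.58 (SE 0.24, 95% interval from 0.05 to 1.12) with an adjusted p of 0.0746 from limma, which is 1.499-fold and just short of the threshold. SPRY1 passed both thresholds in 5 of 17 alternatives, and an adjusted p of 0.05 in 1 of them. Of the 5, 3 left out 1 library, with log2 fold changes of 0.68 (replicate 1 of si-CTRL), 0.68 (replicate 3 of the same group) and 0.67 (replicate 1 of si-NEK2).

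SPRED proteins carry a Sprouty-like domain and bring the RAS inhibitor NF1 to the membrane. SPRED2 (GSHG0017681, chromosome 2 from 65537986 to 65659656, hg19) had 1149, 935 and 882 normalized counts in si-CTRL replicates 1, 2 and 3 and 761, 749 and 704 in the si-NEK2 replicates. The highest value was that of si-CTRL replicate 1, and the groups did not overlap. For SPRED2 the log2 fold change was -0.41 (SE 0.11, limma adjusted p = 0.0151). It was -0.30 without si-CTRL replicate 1 and missed an adjusted p of 0.05 without si-NEK2 replicate 3 (0.0536 in limma).

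SPRED1 (GSHG0009754, chromosome 15 from 38544516 to 38649450, hg19) had 1364, 1404 and 1436 normalized counts in si-CTRL replicates 1, 2 and 3 and 1327, 1437 and 1425 in the si-NEK2 replicates. These values were interleaved and the most even of the 10 members among si-CTRL libraries. The log2 fold change was -0.01 (95% interval from -0.17 to 0.16, limma adjusted p = 0.956). NF1 itself, the partner of both SPREDs, had a log2 fold change of 0.09 (limma adjusted p = 0.469).

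ETV4 and ETV5 are ETS transcription factors of the PEA3 group, induced by ERK through relief of the repressor capicua. ETV4 (GSHG0013442, chromosome 17 from 41605211 to 41623800, hg19) had 2048, 1443 and 1501 normalized counts in si-CTRL replicates 1, 2 and 3 and 624, 655 and 692 in the si-NEK2 replicates. Of the 10 members it had the largest fall, from 1664 ± 334 to 657 ± 34.5 (SD, n = 3) or to 39.5% (log2 fold change -1.32, SE 0.13, limma adjusted p = 0.000116). The gene overlaps DHX8, a splicing helicase gene, which had 6957 ± 358 and 6973 ± 247 normalized counts (SD, n = 3) in si-CTRL and si-NEK2 cells (log2 fold change 0.00, limma adjusted p = 0.968). Whether the 2 share reads was not tested.

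ETV5 (GSHG0022297, chromosome 3 from 185764106 to 185826901, hg19) had 2898, 2519 and 2325 normalized counts in si-CTRL replicates 1, 2 and 3 and 2421, 2508 and 2616 in the si-NEK2 replicates. The si-NEK2 libraries lay within the range of the si-CTRL libraries. The log2 fold change was -0.03 (95% interval from -0.24 to 0.17, limma adjusted p = 0.802), and its sign turned without si-CTRL replicate 1 (0.05).

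**Figure D2:**
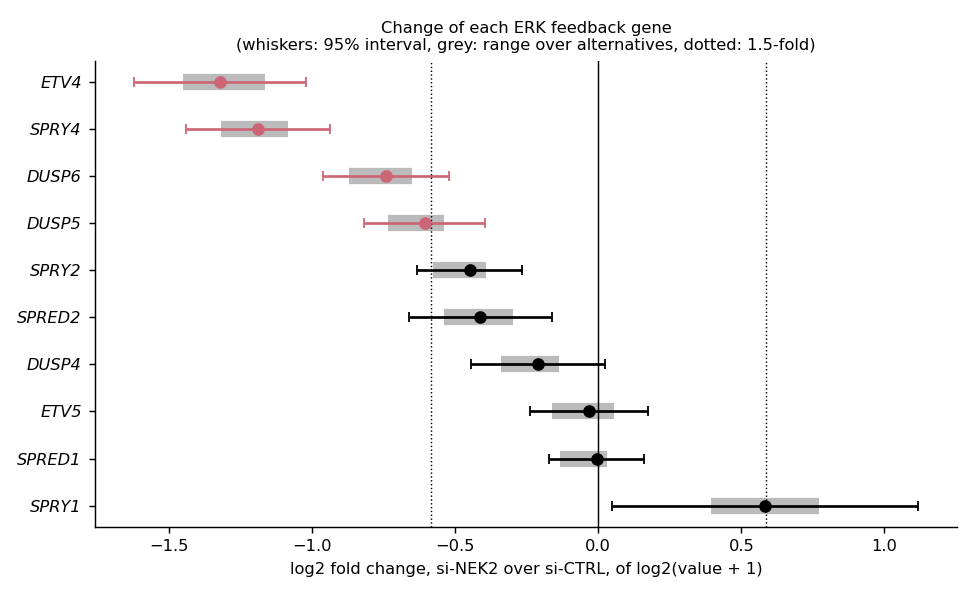
Log2 fold change of each ERK feedback gene (x axis, si-NEK2 over si-CTRL) from limma, with its 95% interval as whiskers and the range over 17 alternatives in grey; red marks genes past both thresholds. ETV4 (-1.32) and SPRY4 (-1.19) lie beyond the 1.5-fold line with their whole interval, DUSP6 and DUSP5 with only their estimate, and SPRY1 (0.58) has the widest interval.

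The spread between libraries differed between the groups. The coefficient of variation was larger in si-CTRL than in si-NEK2 cells for 8 of the 10 members, with medians of 12.3% and 4.21%. This was so for 70.9% of the 14958 genes that averaged 50 or more normalized counts, with medians of 9.96% and 5.42%. si-CTRL replicate 1, the library with the fewest reads, held the highest si-CTRL value of DUSP6, SPRY4, SPRED2, ETV4 and ETV5. Replicate 3 of that group held the highest value of as many members, DUSP4, DUSP5, SPRY1, SPRY2 and SPRED1. Without si-CTRL replicate 1, ETV4 (-1.16), SPRY4 (-1.08), DUSP6 (-0.65) and DUSP5 (-0.67) still passed both thresholds.

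Levels were compared between members per kilobase of merged exons (GENCODE v29). In si-CTRL cells the order was DUSP5 (1612 ± 146 normalized counts per kilobase, SD, n = 3), DUSP6 (1275 ± 169), SPRY2 (1131 ± 102), SPRY4 (486 ± 75.9), ETV4 (461 ± 92.6), ETV5 (445 ± 50.2), DUSP4 (366 ± 41.1), SPRED2 (192 ± 27.4), SPRED1 (170 ± 4.42) and SPRY1 (10.4 ± 2.25). The libraries overlapped between the neighbours DUSP6 and SPRY2, between SPRY4, ETV4 and ETV5 in turn, and between SPRED2 and SPRED1. In si-NEK2 cells DUSP5 remained first (1058 ± 97.2), SPRY2 (826 ± 18.8) stood above DUSP6 (758 ± 20.6), and SPRY4 (211 ± 5.44) and ETV4 (182 ± 9.56) stood below ETV5 (433 ± 16.8) and DUSP4 (316 ± 28.1).

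Changes of close relatives were compared as the ratio of 2 members within a library, free of any scaling between libraries. ETV4 made up 50.7% ± 2.63 of the ETV4 and ETV5 counts per kilobase in si-CTRL cells and 29.6% ± 0.286 in si-NEK2 cells (SD, n = 3). The log2 ratio of ETV4 to ETV5 counts was -0.50, -0.80 and -0.63 in si-CTRL replicates 1, 2 and 3 and -1.96, -1.93 and -1.92 in the si-NEK2 replicates, a difference of -1.29. The log2 ratio of SPRY2 to SPRY4 was -0.07, 0.21 and 0.20 in si-CTRL and 0.86, 0.89 and 0.81 in si-NEK2 replicates 1, 2 and 3, a difference of 0.74. The share of SPRY4 in the Sprouty counts per kilobase was 29.8% ± 2.33 in si-CTRL and 20.1% ± 0.493 in si-NEK2 cells (SD, n = 3).

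Of the 8 pairs compared, 7 had ratios that did not overlap between the groups, and no such share was computed for other pairs of genes. The pairs among the DUSP genes, and those among the SPRY genes, share members and are not independent. Of all single genes tested, 26.9% lay lower and 28.2% higher in si-NEK2 cells without overlap. These shares are for single genes and are not a background for ratios. Each of the 7 pairs reached the smallest p that 3 libraries against 3 allow (two-sided exact permutation test, p = 0.1, adjusted p = 0.114 over the 8 pairs), so that this design cannot pass a threshold of 0.05. The differences were 0.41 for SPRED1 to SPRED2, 0.53 for DUSP4 to DUSP6, 0.40 for DUSP4 to DUSP5, 1.03 for SPRY1 to SPRY2 and 1.77 for SPRY1 to SPRY4. DUSP5 to DUSP6 overlapped, with a difference of 0.13 (two-sided exact permutation test, p = 0.6), and became -0.01 without si-CTRL replicate 1.

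**Figure D3:**
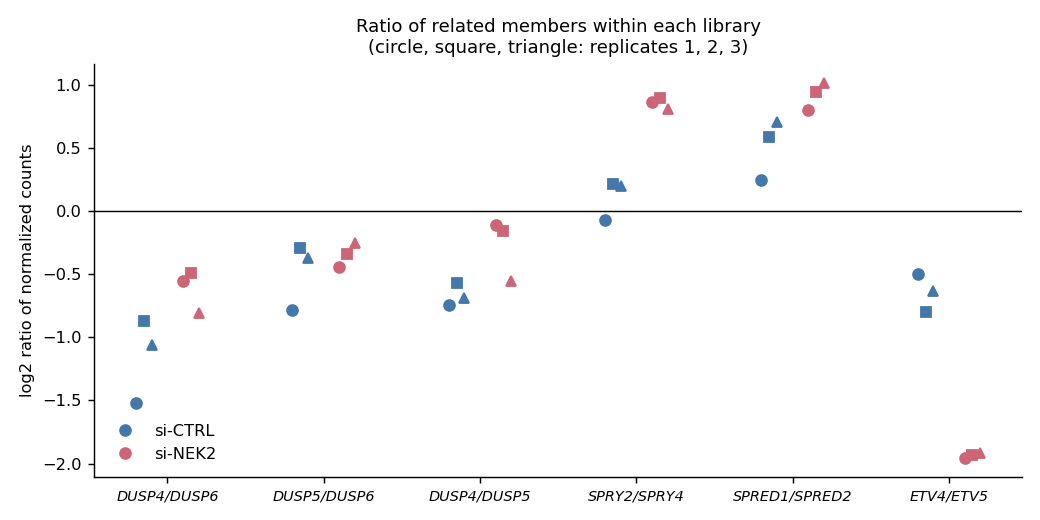
Log2 ratio of the normalized counts of related members (y axis) in each library for 6 pairs (x axis), si-CTRL in blue and si-NEK2 in red. The ETV4 to ETV5 ratios fall from between -0.80 and -0.50 to between -1.96 and -1.92, and those of DUSP5 to DUSP6 overlap.

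The promoters of members that fell together are shown for sequences that ERK-responsive factors are known to bind. RefSeq promoters (GRCh38.p14) were at hand for 6 of the 10 members, with 10 starts in all: DUSP6, SPRY1, SPRY2, SPRY4, SPRED1 and SPRED2. The 250 bases before the start are given 5′ to 3′ for 3 members that fell, DUSP6 (minus strand, chr12:89352502-89352751), SPRY4 (minus strand, chr5:142324248-142324497) and the most upstream start of SPRY2 (minus strand, chr13:80341127-80341376), with matches to the motifs searched in capitals.
DUSP6: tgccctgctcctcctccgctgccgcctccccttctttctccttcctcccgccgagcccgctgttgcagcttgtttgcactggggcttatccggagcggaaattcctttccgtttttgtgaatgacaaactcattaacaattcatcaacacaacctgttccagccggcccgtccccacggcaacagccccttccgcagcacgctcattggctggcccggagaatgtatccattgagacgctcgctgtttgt
SPRY4: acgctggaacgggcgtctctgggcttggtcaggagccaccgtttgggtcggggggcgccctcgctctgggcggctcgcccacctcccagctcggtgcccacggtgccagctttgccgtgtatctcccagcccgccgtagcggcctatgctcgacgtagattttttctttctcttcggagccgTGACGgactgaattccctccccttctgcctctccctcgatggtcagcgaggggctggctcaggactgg
SPRY2: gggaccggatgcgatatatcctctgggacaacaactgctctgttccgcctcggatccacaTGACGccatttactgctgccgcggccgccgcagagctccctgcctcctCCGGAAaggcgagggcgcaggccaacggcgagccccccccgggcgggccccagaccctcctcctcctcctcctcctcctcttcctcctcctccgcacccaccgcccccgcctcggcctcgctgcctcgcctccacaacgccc
The motifs, searched on both strands, were the capicua sites TGAATGAA and TGAATGGA, the AP-1 site TGANTCA, the core TGACG of CREB-type sites and the ETS site CCGGAA. SPRY4 held TGACG at -68 from the start, and the SPRY2 start shown held TGACG at -190 and CCGGAA at -142. The remaining SPRY2 starts and the DUSP6 window held none of the 5 motifs. Of the 10 member starts, 2 held TGACG, 2 held CCGGAA and 0 held TGANTCA, TGAATGAA or TGAATGGA. Over all 35116 promoter windows of this length, 21.2% held TGACG, 14.5% CCGGAA, 6.57% TGANTCA, 1.4% TGAATGAA and 0.832% TGAATGGA. Of the other members, SPRY1 held CCGGAA at -67 of 1 start, and SPRED1 and SPRED2 held no match.

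Around these 10 genes, other parts of the pathway were counted from lists chosen by function, with earlier results of these data known. Each count stands beside 14.3% of all genes regulated downward, 8.23% regulated upward and a median log2 fold change of 0.01. This comparison describes the lists and does not test them. Of the cascade itself, HRAS, NRAS, ARAF, BRAF, MAP2K1, MAP2K2, MAPK3 and KSR1 were counted, and 1 of 8 was regulated, downward. MAP2K1, which encodes the kinase MEK1, fell from 3759 ± 206 to 1927 ± 63.8 normalized counts (SD, n = 3; log2 fold change -0.96, limma adjusted p = 2.76e-05). MAP2K2 (MEK2) rose by 0.42 on the log2 scale (limma adjusted p = 0.00652) and MAPK3 (ERK1) had 0.10 (limma adjusted p = 0.487). Among the RAS and RAF genes counted, NRAS rose within 1.5-fold (0.39, limma adjusted p = 0.00188). BRAF (0.10), ARAF (0.17), HRAS (-0.11) and KSR1 (-0.05) did not pass. Without si-CTRL replicate 1, 4 of the 8 rose in place of 2, with ARAF (limma adjusted p = 0.00503) and MAPK3 (limma adjusted p = 0.00527) added. The median of these 8 genes was 0.10.

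Of 16 regulators that act on RAS, 5 were regulated downward and 1 upward, beside the same 14.3% and 8.23% of all genes, with a median of 0.04. They were DAB2IP (-1.53), a RAS GTPase-activating protein, GAB2 (-1.38), a docking protein of receptor signalling, SHOC2 (-1.25), a scaffold that helps activate RAF, RASA2 (-0.76), MRAS (-0.63) and, upward, the ubiquitin ligase gene CBLB (0.76). RASA2 and MRAS were named after their values had been seen, since they complete the count. The adjusted p-values of the 6 were at most 0.00205 in limma. MRAS was short of 1.5-fold with quantile normalization (-0.52) and when replicate 2 of either group was left out (-0.57 for both), which left 4 downward.

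Among the 7 other MAPK phosphatase genes, DUSP2 was at or near 0 and was not tested. DUSP10, whose product acts mainly on JNK and p38, rose from 2044 ± 237 to 4517 ± 262 normalized counts (SD, n = 3; log2 fold change 1.15, limma adjusted p = 4.72e-05). DUSP9 (-0.60, limma adjusted p = 0.0313) was regulated downward, a call that 13 of 17 alternatives kept, and its adjusted p missed 0.05 in 7 of them, reaching 0.130. Leaving out 1 library took it below 1.5-fold for replicate 1 of si-CTRL (-0.53), replicate 2 of the same group (-0.52) and replicate 1 of si-NEK2 (-0.46). DUSP1, DUSP7 and DUSP16 fell by less than 1.5-fold (-0.51, -0.23 and -0.56), although the adjusted p of DUSP7 and of DUSP16 missed 0.05 in 7 and 6 of 17 alternatives. DUSP1 passed both thresholds in 2 of the 17 and DUSP16 in 7, among them the fits without si-CTRL replicate 2 (-0.63), replicate 3 of that group (-0.69) and si-NEK2 replicate 3 (-0.64). DUSP8 had -0.25 (limma adjusted p = 0.240). The 10 members have 3 further relatives, of which SPRY3 was not analysed here. SPRED3 fell from 2349 ± 636 to 662 ± 11.5 normalized counts (SD, n = 3; log2 fold change -1.79, limma adjusted p = 6.5e-05) and ETV1 from 1434 ± 229 to 685 ± 62.0 (SD, n = 3; log2 fold change -1.06, limma adjusted p = 0.000261). Beside them, the log2 fold changes were -0.01 for SPRED1, -0.41 for SPRED2, -1.32 for ETV4 and -0.03 for ETV5.

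Of 5 further inhibitors of receptor or RAF signalling, LRIG1 was regulated (-1.62, limma adjusted p = 6.51e-06). ERRFI1 (0.54, adjusted p = 0.000282) and PEBP1 (0.49, adjusted p = 0.000368, limma) rose by less than 1.5-fold, and IL17RD and FLRT3 did not pass. Of 11 kinases and ETS factors that ERK phosphorylates or activates, ELK3 (-1.64), RPS6KA2 (-1.14) and RPS6KA4 (-0.70) were regulated downward and MKNK2 upward (0.70), with adjusted p-values of at most 0.000464 in limma. MKNK2 was short of 1.5-fold with equal totals (0.57). The row of RPS6KA4 also carries the microRNA gene MIR1237. The capicua list held 3 genes, of which ATXN1 (1.14, limma adjusted p = 4.81e-05), whose product binds capicua, was regulated upward. Its relative ATXN1L rose by 0.56 (limma adjusted p = 0.000155), and capicua itself, CIC, had -0.13 (limma adjusted p = 0.346).

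Of 17 other transcripts known to respond to ERK that were tested, 10 were regulated downward and 2 upward, beside 14.3% and 8.23% of all genes. Their median log2 fold change was -0.76, beside 0.01 over all genes. The largest falls were those of LIF, a cytokine, from 15014 ± 1726 to 5006 ± 355 normalized counts (SD, n = 3; log2 fold change -1.58), PHLDA1 (-1.49), the EGFR ligand HBEGF (-1.43) and cyclin D1, CCND1 (-1.16), with adjusted p-values of at most 0.000189 in limma. The 2 upward were EPHA4 (0.81) and ATF3 (0.70), named after their values had been seen. The call of ATF3 was kept by 15 of 17 alternatives. It was lost with equal totals and without si-CTRL replicate 2, where ATF3 was short of 1.5-fold (0.52). The adjusted p of ATF3 missed 0.05 in 3 of the 17. EREG was below the filter. Between 9 and 10 of these genes were regulated downward across the 17 alternatives, and between 1 and 2 upward.

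**Figure D4:**
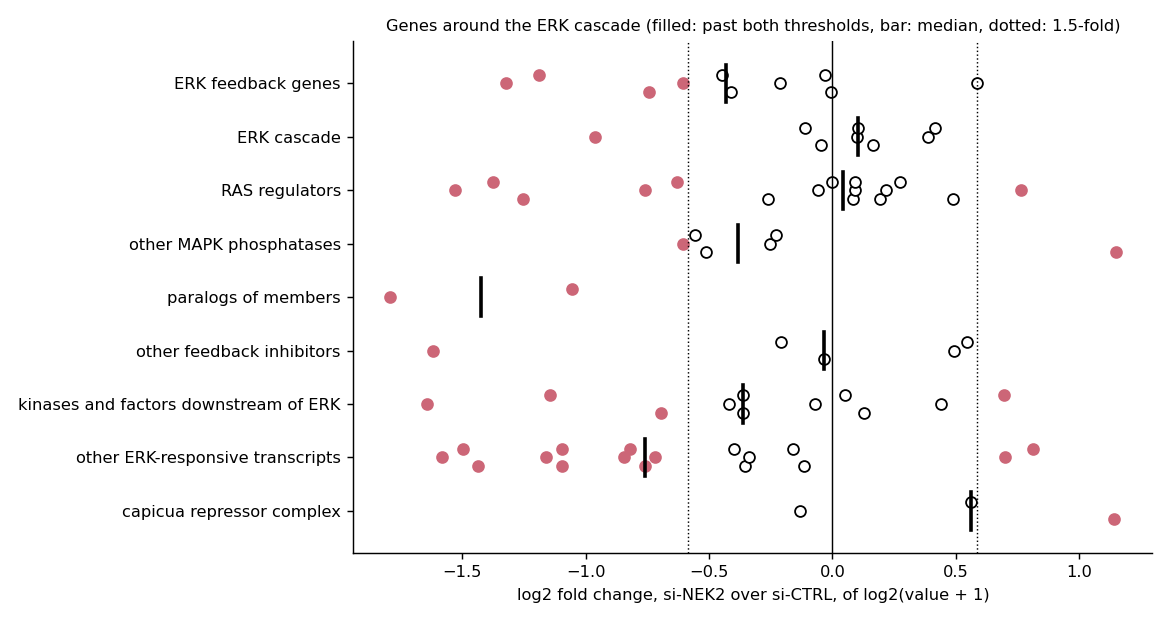
Log2 fold change (x axis, si-NEK2 over si-CTRL) of the tested genes of each list (y axis), filled where past both thresholds, with the list median as a bar. The ERK feedback genes have a median of -0.43 and the other ERK-responsive transcripts of -0.76, while the 8 cascade genes have a median of 0.10.

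The genes whose pattern over the 6 libraries was most like that of ETV4, the member with the largest fall, were GALNT14, a glycosyltransferase gene, CKAP2L, a mitotic spindle protein gene, and ARHGAP31, a gene of a GTPase-activating protein. Likeness was the Euclidean distance between log2 values centred per gene, which was 0.11, 0.12 and 0.13 among 12915 genes. Their log2 fold changes were -1.30, -1.38 and -1.32. Values near that of ETV4 follow from this choice, since the distance includes the difference between the groups. No member was regulated upward, so that no such genes were sought for a rise.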

How the data were processed

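RNA-seq of MDA-MB-231 cells was analysed in 3 si-CTRL and 3 si-NEK2 libraries, grouped by sample title. The authors deposited a gene signal, that is the reads on each gene of the FAST DB v2016_1 annotation (hg19) scaled by a DESeq2 size factor per library, with replicates not pooled. The submitters' processing notes name STAR 2.4.0, SAMtools, Picard, FastQC and DESeq2. The library kit marks strand, but the counter and its strand setting are not given in the sources used here. Every value was a whole multiple of 1 read (100% of values, tolerance 0.01 reads), which gave back the reads. Whether replicates are separate cultures is not stated, so p-values measure the spread between these libraries.

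Genes with a mean of at least 10 were tested on log2(value + 1) with limma 3.58.1 (R 4.3.3; lmFit, eBayes with trend), which understates changes of low genes. The call thresholds (a p of 0.05, 1.5-fold) are those of the study's methods. The study's own analysis reported fewer genes regulated in expression at these thresholds than the 4213 called here. Ratios of members were compared with exact permutation tests (scipy 1.17.1). The limma, edgeR and DESeq2 fits were tested on simulated counts. Far fewer genes changed there than in these data, and the spread was set alike in both groups. The fit was repeated with a pseudocount of 0.1 or 5, without the filter or with one at 50, scaled to the upper quartile, the total or by quantiles, without the trend, with a replicate block, without each library, with an adjusted p or a 2-fold change as threshold, and on the recovered reads in DESeq2 1.42.0 and, with TMM and the quasi-likelihood test, in edgeR 4.0.16. DESeq2 gave no p-value for 5 genes. The members, lists and tests were chosen with earlier results of these data known. Genes named are all members and NEK2, the genes of the cascade list (some cascade genes are not reported here), of each other list up to 4 regulated genes with the largest change and a mean of at least 50, the 3 genes nearest to the member with the largest change, and genes that complete a small count.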

Additional observations from a re-analysis of the deposited data

How the results depend on the processing

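ETV4, SPRY4 and DUSP6 were regulated downward under all 17 alternatives to processing, and DUSP5 under 15. The number of members regulated downward was 4, and 3 to 4 across the fits that left out one library. It was 2 with a fold change of at least 2 (ETV4 and SPRY4), which also took the count of all regulated genes from 4213 to 1637 by construction. The number of members regulated upward was 0, and 1 (SPRY1) with a pseudocount of 0.1 and with quantile normalization, and from 0 to 1 when single libraries were left out (si-CTRL replicate 1 or 3, or si-NEK2 replicate 1, gave 1). The number with an adjusted p of at most 0.05 was 6, and from 5 to 7 across all alternatives. Values near 0 changed sign: leaving out 1 library at a time gave from -0.10 to 0.055 for ETV5 (0.055 without si-CTRL replicate 1), from -0.027 to 0.031 for SPRED1 (above 0 without si-CTRL replicate 3 or si-NEK2 replicate 1) and from -0.015 to 0.23 for the DUSP5 to DUSP6 ratio difference (below 0 without si-CTRL replicate 1). The cause was not tested. With equal totals the median of all genes was -0.11 and the share of regulated genes that were higher from 36.6% to 21.3%. Upper quartile scaling gave 28.1% and quantile normalization gave 45.9%. With equal totals ETV4 was at -1.45 and SPRED1 at -0.13, before that shift is taken off. With the replicate number as a block, 4084 genes in place of 4213 were regulated and the 4 members were the same. Libraries of the same number deviated from their group means with correlations of -0.09, 0.05 and -0.15 across genes. With 3 libraries per group these values cannot decide whether libraries of the same number were prepared together, which was not tested. edgeR called 4189 genes and DESeq2 called 4039, each with the same 4 members. SPRY1 had the lowest counts of the members, 31.0 to 74.1.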
